A study of Rattus norvegicus with 9 samples.

Results

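RNA sequencing of rat heart yields, beside the transcripts of known genes, assembled pieces of RNA that lie outside every annotated transcript. The 1491 regions described here are the expressed ones among these that lie close to a known locus. They were chosen from 16921 merged regions by measured values. An assembled transcript of at least 200 nt had to overlap no reference transcript span of any library, overlapping transcripts were merged over the 9 libraries, and a merged region was kept within 10 kb of the nearest reference span and at a level of 5 or more in all 3 libraries of at least 1 group. The level is rescaled FPKM, the deposited fragments per kilobase and per 1000000 fragments, brought to a common scale with a mean library total of 1000000. Within 10 kb there were 12219 merged regions at any level, and 446 regions reached the level farther away.

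All rats were Sprague-Dawley. The fetal group is ventricle at embryonic day 18, with libraries numbered as litters 1 to 3. The sham group is left ventricle of adults that had surgery without constriction, and the TAC group is adult left ventricle after transverse aortic constriction, which loads the heart with pressure. Each group has 3 libraries. Isolation differed too, with Trizol for the fetal hearts and a column kit for the adult ones, and its part cannot be told apart from that of age or heart region. The labels used here do not give the time after surgery or say whether each adult library is a separate animal, so p-values measure the spread between libraries, which may be technical.

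The ends of a gene in an annotation are often incomplete, above all the 3′ end, where alternative polyadenylation can lengthen the untranslated region by kilobases. RNA just outside an annotated locus can therefore belong to the same gene, to a neighbouring gene that the annotation lacks, to a processed pseudogene (an intronless copy of a messenger RNA) or to the long primary transcript from which a microRNA is cut. The libraries do not mark the strand, so a region and its neighbour cannot be separated by direction of transcription.

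For 4 regions the nearest reference locus was a microRNA hairpin. The mature products of these hairpins are shown, while the regions are stretches of longer RNA beside the hairpin. Sequences are from RefSeq (GRCr8), all 4 hairpins matched by name, and capitals mark the seed, bases 2 to 8, which pairs with target messages.
rno-miR-22-3p: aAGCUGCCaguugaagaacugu
rno-miR-22-5p: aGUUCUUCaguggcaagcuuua
rno-miR-24-3p: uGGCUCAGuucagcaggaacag
rno-miR-24-2-5p: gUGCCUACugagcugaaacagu
rno-miR-322-5p: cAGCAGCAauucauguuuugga
rno-miR-322-3p: aAACAUGAagcgcugcaaca
rno-miR-421-3p: aUCAACAGacauuaauuggg
rno-miR-421-5p: gGCCUCAUuaaauguuuguug
The seed of rno-miR-322-5p, AGCAGCA, is that of the miR-15 and miR-16 family, and no 2 of the sequences shown share a seed. The region beside rno-mir-322 (chrX:140000261-140003194, rn4) ended 5 bases from the hairpin. Its level was 32.1, 60.8 and 97.98 in the fetal libraries, 0, 4.81 and 36.3 in sham and 0 in all 3 in TAC. Every fetal library was above every TAC library, while sham replicate 3 overlapped the fetal range. The region beside rno-mir-421 (chrX:91550585-91562456) lay between that hairpin and Ftx, a noncoding gene of the X inactivation centre, and was at 13.98, 5.22 and 8.29 in fetal, 0, 8.52 and 2.53 in sham and 0 in all 3 in TAC. The region 37 bases from rno-mir-24-2 (chr19:25637350-25638392) was at 21.2, 72.7 and 14.7 in TAC, 0, 15.7 and 5.23 in sham and 0, 2.78 and 3.37 in fetal, and TAC and sham overlapped. Beside rno-mir-22 (chr10:62783247-62785276), whose microRNA is abundant in adult heart muscle, the region reached 15.4, 13.6 and 26.98 in sham and 32.8, 20.2 and 0 in TAC, against 5.68, 0 and 0 in fetal. All 3 of its values at 0 fell where that library held an assembled transcript over the stretch that the rule leaves out. None of these hairpins' regions was at the level in every group, and their differences are described without a test because the level chose them.

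Most of the regions lay close to their neighbour. The median distance to the nearest reference span was 781 bases (quartiles 276.5 and 2341), and 827 regions lay within 1000 bases and 147 within 100. A side could be given for 580 regions whose nearest locus has a symbol and keeps its gene order in RefSeq. Of these 479 (82.6%) lay on the 3′ side and 101 on the 5′ side. The 3′ share was 88.7% of 354 regions within 1000 bases and 54.5% of 44 regions beyond 5000 bases, a difference described here without a test. The regions on the 3′ side had a median longest transcript of 1954 nt and were gapped, that is assembled with an intron-like break in at least 1 library, in 6.89% of cases. On the 5′ side the median was 1140 nt and 29.7% were gapped. Among all members 15.2% were gapped in at least 1 library and 14 regions were gapped in all 9. Of the 446 regions at the level but farther than 10 kb, 42.4% were gapped and the median longest transcript was 1035.5 nt, against 1838 nt for members.

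**Figure D1:**
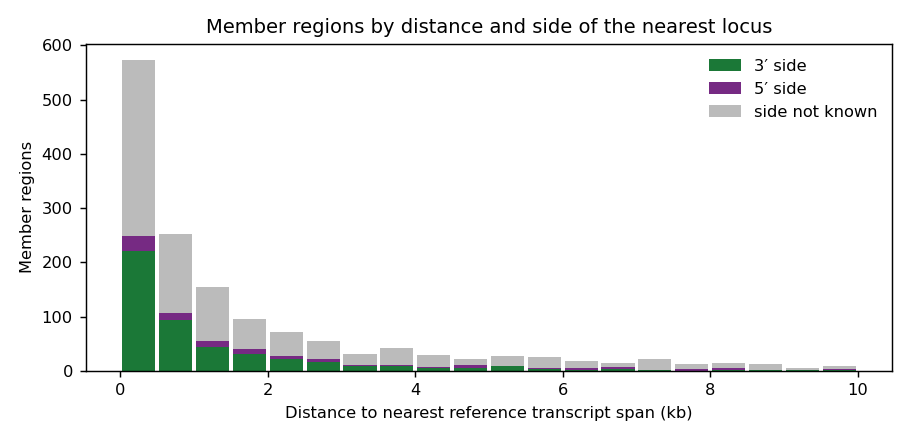
Member regions in bins of 500 bases of distance to the nearest reference transcript span (x axis, kb), with bars stacked by the side of that locus. Of the 580 oriented regions 479 lie on the 3′ side (green), and 827 of all 1491 regions fall within the first 1000 bases.

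The level was reached in fewer regions in fetal than in adult libraries. It was met in TAC by 930 regions, in sham by 858 and in fetal by 577. Alone it was met in TAC by 373, in sham by 276 and in fetal by 212, while 265 reached it in sham and TAC, 73 in fetal and sham, 48 in fetal and TAC and 244 in all 3 groups. These numbers describe the choice of regions and no test was made of them. Assembled transcripts of at least 200 nt outside the reference spans, at any level, were more numerous in fetal. They numbered 6929 to 11567 in the fetal libraries, 4508 to 5063 in sham and 3804 to 5707 in TAC. The same held for all assembled transcripts of that length, inside or outside the reference spans. These numbered 19674 to 33209 in fetal, 14533 to 16563 in sham and 10448 to 17702 in TAC, so the excess is not particular to those outside. Most regions were weak, with a median level over the 9 libraries of 15.5, 948 regions under 20 and 49 at 100 or more. A region in a library above 0 held a median of 82 implied fragments, estimated from the deposited confidence bounds (quartiles 45 and 154, lowest 11).

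Some facts on the libraries bear on these values. Libraries with the same replicate number deviated together, with correlations between 0.15 and 0.45, replicate 1 of each group standing apart from replicates 2 and 3. Heart muscle genes were present in every library: myoglobin (Mb) was at 660 to 1500 in fetal, 18839 to 25180 in sham and 19108 to 21269 in TAC. Other heart muscle markers went the other way, and Tnni1 was at 2052 to 2815 in fetal, 2.17 to 18.9 in sham and 1.74 to 31.5 in TAC. The listed ones with a value (12 of 32) summed to 24884 to 156900 in fetal, 52517 to 56310 in sham and 52477 to 62208 in TAC. Fetal replicate 2 had 137340 of Actc1, cardiac actin, against 14250.0 and 19168 in the other fetal libraries. The listed markers of proliferation with a value (4 of 6) summed to 278 to 367 in fetal, 8.32 to 11.9 in sham and 5.96 to 13.4 in TAC. Those of erythroid cells (4 of 6) summed to 17296 to 27571 in fetal and 5030 to 11393 in the adult libraries, and those of macrophages (5 of 6) to 48.0 to 56.1 in fetal and 252 to 423 in the adult ones. Smooth muscle markers (3 of 5) summed to 1591 to 1946 in fetal and 130 to 325 in the adult libraries, and fibroblast markers (6 of 9) to 399 to 607 and 1028 to 1559. Most of the smooth muscle sum was Myl9. Cnn1 was also higher in fetal, while Tagln overlapped, with means of 107 in fetal and 104 in sham. Against the fibroblast sum, the means of Postn (269 against 13.2 in sham) and Tcf21 (33.2 against 22.5) were higher in fetal. Endothelial markers (4 of 7) summed to 95.2 to 173 in fetal, 164 to 287 in sham and 196 to 300 in TAC. Within TAC, replicate 1 stood apart in Myl7, a myosin light chain typical of atrium, at 1068 against 147 and 105, and in Nppa, the atrial natriuretic peptide gene, at 1779 against 254 and 527. In whole tissue, fewer cells of a type and less RNA per cell cannot be told apart, and the part of these differences in the results below was not tested.

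A value of 0 in a region does not by itself show that a library held no RNA there. Of 13419 region and library values 3306 were 0, in 1150 regions, and for 1833 of them (55.4%) the same library held an assembled transcript over the region that the rule left out because it was linked to a reference span or was under 200 nt. In 1648 cases such a transcript covered at least 50% of the region. Both counts use transcript spans from start to end, introns included, and the first needs any overlap only. A span over a region therefore does not show RNA at that place. In regions at the level in TAC alone, 1032 of 1248 values at 0 in the other groups (82.7%) were of this kind. For regions at the level in sham alone the count was 319 of 751 (42.5%), and for fetal alone 161 of 821 (19.6%). By library, between 42 and 74 zeros lay under such a transcript in TAC, 121 to 225 in sham and 272 to 471 in fetal. In 526 regions every 0 was of this kind, and 341 regions (22.9%) were above 0 in all 9 libraries. Of those 341, 158 had no left-out transcript over them in any library. A value above 0 may therefore also be incomplete.

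**Figure D2:**
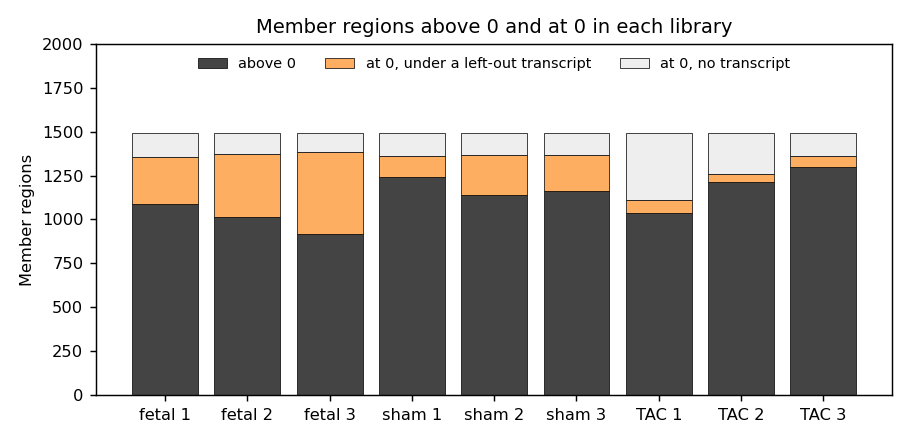
Number of the 1491 member regions (y axis) in each of the 9 libraries (x axis) that were above 0, at 0 under an assembled transcript left out by the rule, or at 0 with no transcript there. TAC libraries have 42 to 74 zeros under such a transcript and fetal libraries 272 to 471.

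The strongest regions are single features far above the locus they are assigned to. The 10 highest held 42.7% of the summed level of all members. The highest was a stretch of 359 bases (chr4:184112296-184112654) 8826 bases from LOC690728, between Tuba3b and Fgfr1op2 in the order of named genes, at 2396, 4419 and 4958 in fetal, 7976, 8039 and 16561 in sham and 5916, 9377 and 18374 in TAC, against a mean of 26.4 to 32.4 in the locus beside it. The groups were not separated by the test, fetal minus sham being -1.45 (SE 0.66, adjusted p = 0.14) on the log2(level + 1) scale. Near Pcdhb9, a protocadherin, a region (chr18:30199935-30201573) lay where RefSeq lists Aldoa-ps4, a pseudogene of the glycolytic enzyme aldolase A. It was at 162, 38401 and 983 in fetal, 6159, 2338 and 2742 in sham and 464, 2042 and 1926 in TAC, so that its fetal mean rests on replicate 2. A region of 318 bases (chr3:169739684-169740001) between Tcfl5 and Dido1, where RefSeq lists the ATP synthase pseudogene Atp5mf-ps2, was at 754, 691 and 887 in fetal, 965, 3445 and 1703 in sham and 1314, 1360.2 and 1477 in TAC. Fetal minus sham was -1.20 (SE 0.42, adjusted p = 0.06). A region between Ces2a and Cdh16 (chr19:242325-243113) was at 248, 444 and 251, 445, 355 and 843 and 472, 454 and 348 in the same order of groups, with overlapping ranges. One further region among the highest, near Phkg1 (chr12:28053156-28053690), owed its mean to sham replicate 3 and TAC replicate 2, at 1142 and 2001, with the other 4 adult libraries at 0 under a left-out transcript and the fetal libraries at 103, 98.3 and 353.

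Gene order places many of the regions where the newer annotation has a gene. For 1319 regions both flanking named loci were found on 1 chromosome of the GRCr8 RefSeq table with at most 12 genes between them, and for 1095 of these at least 1 further RefSeq gene stood between the flanks. A protein-coding gene stood there for 66.9%, a long noncoding RNA for 56.7% and a pseudogene for 40.03%. This is an order of names and not a match of coordinates, and it does not assign a region to a gene. The level of a region exceeded that of its nearest locus in 912 cases (61.2%), and in 54 cases by more than 10-fold with the locus at 1 or more. The rule asked a level of the regions and none of the loci, so these counts follow in part from the choice. A region's value is also a sum over its pieces, which raises it where there are several.

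Fetal and sham ventricle were compared to ask which of these stretches differ between the developing and the adult heart. A region enters the comparison as a test only when it met the level in both groups, since the level then asks the same of both. Of 317 such regions, 44 were lower and 4 higher in fetal than in sham (limma, Benjamini-Hochberg adjusted p below 0.05), which is 15.1%. Of all 19816 features 35.2% passed, 18.2% higher and 17.0% lower in fetal, of reference loci 40.7% and of merged regions 21.3%. Their median log2 difference was -0.48, against 0.00 over all features. The balance depends on how the pieces of a region are added. With FPKM weighted by length the counts were 51 lower and 27 higher, and the median was -0.10, and 45 of the 48 calls held in the same direction. Left-out transcripts can lie over regions above 0 too, and their part in this balance was not tested.

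The region with the greatest fetal decrease (chr2:22084959-22106157) was gapped in all 9 libraries and lay on the 3′ side of the locus the files call RGRF2_RAT (Rasgrf2, a Ras exchange factor), 7491 bases away. Between Acot12 and Rasgrf2, RefSeq lists Zcchc9, a long noncoding RNA and Ckmt2, the sarcomeric mitochondrial creatine kinase. The level was 10.7, 78.4 and 70.4 in fetal, 6133, 6497 and 6110.3 in sham and 8274, 7011 and 9128 in TAC. Every adult library was above every fetal one, the sham mean of 6247 ± 217 (SD, n = 3) being 117 times the fetal mean of 53.2 ± 36.96. Fetal minus sham was -7.27 (SE 0.67, adjusted p = 0.00018) and fetal minus TAC -7.64 (SE 0.67, adjusted p = 0.00014). Its nearest locus was at 3.37 ± 0.821 in sham, far below the region. A second region gapped in all libraries (chr2:31530726-31541076) lay between Cdk7 and Ccnb1, where RefSeq lists Kgd4, a small subunit of the 2-oxoglutarate dehydrogenase complex, and the kinetochore gene Cenph. It was at 186, 169 and 159 in fetal, 455, 267 and 317 in sham and 349, 452 and 466 in TAC, with no overlap between fetal and adult libraries. Fetal minus sham was -0.98 (SE 0.21, adjusted p = 0.0089) and fetal minus TAC -1.29 (SE 0.21, adjusted p = 0.0025). In the second of these comparisons the nearest locus, Cdk7, moved the other way, by 0.84 (adjusted p = 0.019).

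Among the other decreases was a gapped region between Ms4a15 and Ms4a8 (chr1:213557328-213560419), where RefSeq has Ms4a18, a long noncoding RNA and Snx5-ps1. It was at 23.6, 20.6 and 36.8 in fetal and 130.04, 147 and 96.4 in sham, with TAC at 142, 177 and 158. Fetal minus sham was -2.19 (SE 0.24, adjusted p = 0.00038). Every fetal library was below every adult one.

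Further decreases lay beside loci without a symbol. A region between Rchy1 and Btc (chr14:18041201-18043507) was at 44.8, 36.2 and 47.7 in fetal, 208, 207 and 179.6 in sham and 196, 226 and 181 in TAC, and fetal minus sham was -2.19 (SE 0.14, adjusted p = 3.9e-05). Its nearest locus fell as well, by 1.78. A region between Spmip11 and Cacnb3 (chr7:137354961-137356083), an interval that holds Adcy6, Tuba1c and the pseudogene Cst3-ps1, was at 82.00, 139.8 and 38.2 in fetal, 736, 363 and 512 in sham and 699, 786 and 453 in TAC. Fetal minus sham was -2.74 (SE 0.48, adjusted p = 0.0035), and with replicates 2 and 3 alone the adjusted p was 0.061. Also lower in fetal were members beside RGD1306437 (chr15:40680253-40683041, -2.53, adjusted p = 0.0012) and LOC684681 (chr17:48500607-48502642, -2.36, adjusted p = 0.0099). A region of several pieces on the 3′ side of Pura (chr18:28924903-28936799) was at 19.6, 10.7 and 8.67 in fetal and 130.4, 38.5 and 40.3 in sham. Its difference of -2.17 (SE 0.64, adjusted p = 0.033) missed the threshold without fetal replicate 2 (adjusted p = 0.092), fetal replicate 3 (0.11) or sham replicate 1 (0.086). With the highest piece in place of the sum it was -1.31 (adjusted p = 0.059), and with no filter on low values the adjusted p was 0.064.

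The 4 regions higher in fetal than in sham were changes of under 3-fold. Between Nrsn2 and Defb23, where Sox12 stands, a transcription factor gene of the SoxC group, a region (chr3:142712429-142714294) was at 118, 115 and 147 in fetal, 50.8, 52.2 and 44.9 in sham and 63.3, 45.7 and 33.8 in TAC. The fetal mean was 2.57 times the sham mean, with a log2 difference of 1.34 (SE 0.22, adjusted p = 0.0026). On the 3′ side of Afap1, an actin filament protein, a region (chr14:80353707-80355601) was at 34.8, 35.03 and 31.7 in fetal and 18.2, 15.2 and 14.7 in sham, a difference of 1.04 (SE 0.19, adjusted p = 0.0038), and Afap1 rose as well by 0.97. Beside Cnn2, calponin 2, which binds actin, the region (chr7:11225240-11226130) differed by 0.69 (SE 0.16, adjusted p = 0.012), with all fetal libraries (81.9, 77.8 and 87.5) above all sham libraries (45.9, 45.99 and 61.4). Near Efnb2, ephrin-B2, a ligand of arterial endothelium, the difference at chr16:86228710-86230171 was 0.75 (SE 0.24, adjusted p = 0.042). It passed only narrowly: leaving out fetal replicate 1 or 3, any sham library or TAC replicate 2, equal library totals, no filter or replicates 2 and 3 alone gave adjusted p between 0.055 and 0.13. The Cnn2 call was lost with replicates 2 and 3 alone (adjusted p = 0.078).

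Regions at the level in only 1 of these 2 groups were chosen on one side of the contrast, so their values are a description. Of 801 such regions 76 were higher and 171 lower in fetal by the same fit, and nothing is read from that count. Near Bmp7, a secreted growth factor, a region (chr3:163721625-163722650) was at 48.03, 56.8 and 52.5 in fetal and at 0 in all 6 adult libraries, and no left-out transcript lay over it in them. Bmp7 itself was at 65.6 ± 4.50 in fetal, 0.546 ± 0.275 in sham and 0.338 ± 0.325 in TAC. On the 3′ side of Ccnb1, cyclin B1, a region (chr2:31572462-31574209) was at 30.3, 54.2 and 43.98 in fetal and likewise at 0 in the adult libraries with nothing over it. Ccnb1 was at 84.3 ± 14.7 in fetal and 2.77 ± 0.245 in sham. Ccnb1 is one of the listed proliferation markers, whose sums are given above.

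Clusters of regions beside 1 locus were seen at 5 loci with 3 or more members. At MGC93975, between Josd2 and Garin5a where RefSeq lists a tRNA and Emc10, a gene of the endoplasmic reticulum membrane complex, 4 regions followed each other. The outer pair (chr1:94957491-94960036 and chr1:94960177-94963123) was fetal, at 58.02, 686 and 753 and at 85.3, 508 and 369, with sham at 23.5, 0 and 6.88 and 0, 5.51 and 18.4 and TAC at 0 in all 3 and 0, 0 and 4.13. Fetal replicate 1 was the lowest fetal library in both. The inner pair (chr1:94963435-94965358 and chr1:94965448-94967620) met the level in TAC alone, at 69.7, 11.97 and 9.30 and 8.29, 12.7 and 7.41, with 5 of 6 fetal values at 0. Sham was at 9.23, 8.10 and 0 and at 6.74, 7.03 and 0, and missed the level in both through replicate 3 alone. The locus was at 49.1 ± 4.76 in fetal and 114 ± 14.1 in sham. Beyond the 3′ side of Palm2 3 neighbouring regions (chr5:75660797-75661355, chr5:75661748-75662599 and chr5:75662608-75663698) were all fetal. They were at 34.1, 30.1 and 29.2, at 38.1, 22.1 and 25.4 and at 65.2, 16.8 and 84.3, with every adult value at 0 and 1 of those 6 zeros in each region under a left-out transcript. The other clusters lay at Lmbrd2, RGD1561993 and a locus between Fchsd1 and Dele1.

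The adult side of the regions met in 1 group held a region between Mme and Plch1 (chr2:153249432-153252417), an interval with 7 RefSeq entries. They include the protein-coding Tmed2l1, pseudogenes such as Fis1-ps1, and Strit1, typed there as a long noncoding RNA. Strit1 encodes DWORF, a small peptide that raises the activity of the cardiac calcium pump. The order of names does not choose among the 7. The region was gapped in 6 libraries and at 167, 208 and 63.3 in sham and 155, 372 and 273 in TAC. It was at 0 in all 3 fetal libraries, with no left-out transcript over it there. The nearest reference locus, a U6 small nuclear RNA, was at 0 throughout. A region of about 30 kb span (chr7:33016768-33046916), assembled in up to 6 pieces, was at 123, 62.8 and 126 in sham and 90.7, 84.2 and 69.96 in TAC and at 0 in fetal, again with nothing over it. Between Adra1b, an adrenergic receptor gene, and Il12b a region (chr10:29407620-29413612) was at 227, 43.5 and 33.8 in sham and 19.4, 164 and 50.3 in TAC and at 0 in fetal. In 34 of the 94 called regions at 0 throughout fetal no left-out transcript lay over any of the fetal zeros, and in 49 one lay over all 3.

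**Figure D3:**
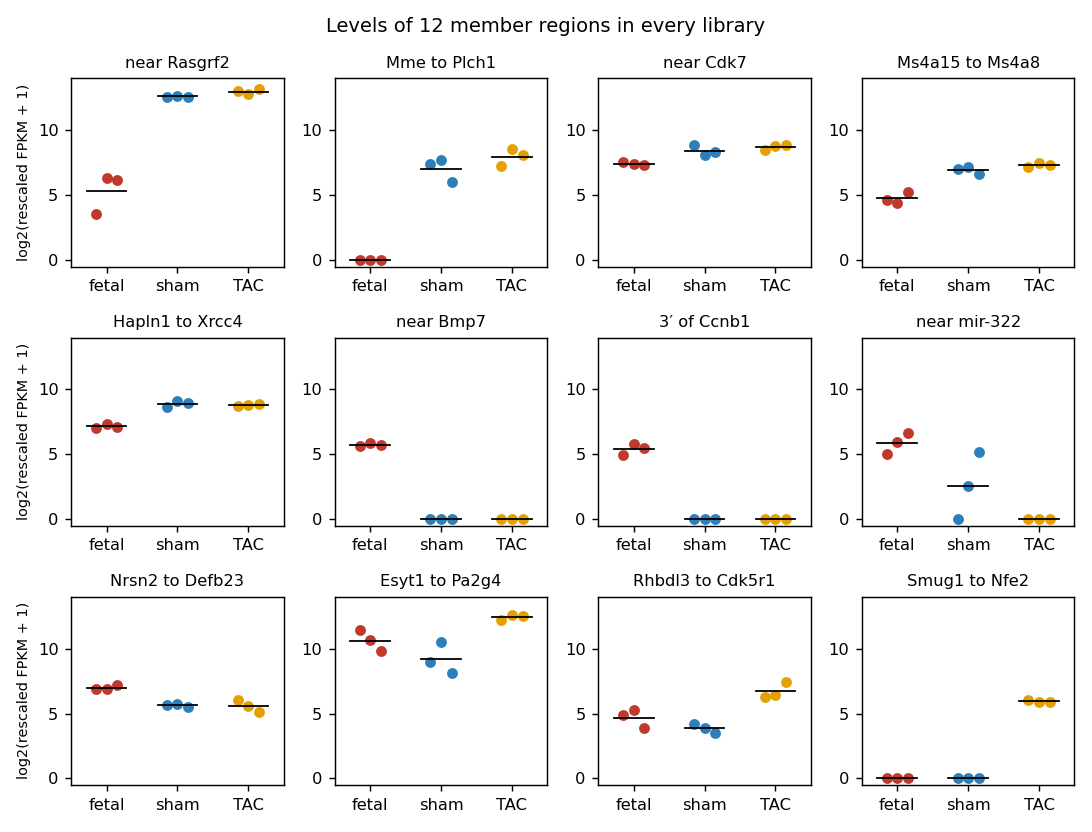
Levels of 12 member regions, 1 panel each, as log2(rescaled FPKM + 1) (y axis) in the 3 fetal, 3 sham and 3 TAC libraries (points) with the mean of each group on that scale (black line). The region near Rasgrf2 is at 10.7, 78.4 and 70.4 in fetal and above 6000 in every adult library, while the region near Bmp7 is at 0 in all 6 adult libraries.

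TAC and sham were compared to ask which stretches change under pressure overload. Of 509 regions at the level in both groups none passed the threshold by limma, 36 had an unadjusted p below 0.05, and 0.237% of all features passed (0.126% higher and 0.111% lower in TAC), 0.0211% of reference loci and 0.784% of merged regions. The alternatives tried gave between 0 and 3 calls. The smallest p belonged to a region between Rhbdl3 and Cdk5r1 (chr10:68583852-68586474), an interval with Zfp207, Psmd11 and Mir632. It was at 76.7, 84.5 and 167 in TAC, 17.4, 14.02 and 10.02 in sham and 29.3, 36.9 and 13.8 in fetal. All TAC libraries were above all others, with a TAC mean 7.93 times the sham mean and a log2 difference of 2.84 (SE 0.43, adjusted p = 0.076). With the highest piece in place of the sum the adjusted p was 0.03, and without fetal replicate 3 it was 0.044.

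Beside Gatad2b, a subunit of the NuRD chromatin complex, a region starting 120 bases past its 3′ end (chr2:182615835-182620658) was at 66.8, 75.3 and 57.1 in TAC, 13.1, 29.6 and 25.3 in sham and 14.4, 16.4 and 17.2 in fetal. TAC minus sham was 1.58 (SE 0.28, adjusted p = 0.17), and without sham replicate 1 the adjusted p was 0.038. Gatad2b itself was at 23.7 ± 2.76 in fetal, 10.8 ± 2.36 in sham and 12.4 ± 0.358 in TAC. For fetal minus TAC the region and Gatad2b went in opposite directions, by -1.98 (limma adjusted p = 0.0012) and 0.88 (limma adjusted p = 0.0072). Between Esyt1 and Pa2g4, where RefSeq lists the ribosomal protein gene Rpl41, Zc3h10 and 2 ribosomal pseudogenes, a region (chr7:1839872-1841150) was at 4809, 6004 and 5993 in TAC, 488, 1449 and 271 in sham and 2702, 1617 and 889.5 in fetal. The TAC mean was 7.61 times the sham mean and the groups did not overlap, but the sham libraries spread widely, and the difference was 3.27 (SE 0.64, adjusted p = 0.27). Without sham replicate 2 the adjusted p was 0.044. Beside Sema4g, a semaphorin, the region (chr1:250070131-250071077) was lower in TAC, at 60.04, 43.4 and 28.4 against 126, 95.9 and 92.7 in sham, with fetal at 40.8, 45.3 and 48.5. TAC minus sham was -1.29 (SE 0.26, adjusted p = 0.29), and with length-weighted FPKM -0.94 (adjusted p = 0.03). Regions near Smug1 and near a locus between Mettl2 and Marchf10 had differences of 1.40 (adjusted p = 0.27) and 2.44 (adjusted p = 0.35).

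Among regions at the level in 1 of the 2 adult groups 23 were past the threshold as higher in TAC and 14 as higher in sham, of 770. The rule used this contrast, so these are values without support from the test. In all 37 the other group was at 0 in all 3 libraries. In 19 of the 23 regions higher in TAC a left-out transcript lay over all 3 sham zeros, and in 1, on the 3′ side of Zbtb9, over none. That region (chr20:5214551-5215199) was at 21.6, 17.5 and 13.8 in TAC and 0 in the other 6 libraries. The highest was a region between Smug1 and Nfe2 (chr7:142153583-142154696), 3 bases from a locus in an interval that holds Cbx5 and the splicing regulator Hnrnpa1. It was at 63.9, 57.9 and 59.8 in TAC and 0 elsewhere, with a left-out transcript over 4 of the 6 zeros, and its nearest locus was at 204 ± 68.2 in fetal, 57.9 ± 11.9 in sham and 20.5 ± 15.4 in TAC.

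Beside Acbd3 (chr13:96489240-96490078) and Rnf144a (chr6:43953667-43956333), both with a left-out transcript over all 6 zeros, TAC was at 40.1, 23.3 and 31.6 and at 36.6, 23.6 and 22.1. Beside Il11ra1, a receptor of interleukin 11, the region (chr5:59190184-59191176) was at 26.4, 31.1 and 30.1 in TAC, 0 in sham and 7.97, 2.33 and 3.02 in fetal. When zeros under a left-out transcript were taken as missing, 1 region higher in TAC and 9 higher in sham were past the threshold. The 19 regions higher in TAC with all 3 sham zeros under such a transcript then had no sham value. They could not be tested in this setting, so their loss says nothing about them.

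Of the 14 higher in sham, 9 had no left-out transcript over any TAC zero. Near the lysosomal membrane gene Lamp2 a stretch of 384 bases on its 3′ side (chrX:6952459-6952842) was at 38.1, 22.1 and 35.9 in sham and at 0 in fetal and TAC. Beside the small nucleolar RNA SNORA40, between Tmem202 and Hexa, a region (chr8:63349651-63350008) was at 18.2, 41.01 and 44.96 in sham and 0 elsewhere. Regions near Mpv17l (chr10:1672804-1674784, sham 14.6, 10.4 and 14.3), the transplantation antigen genes RT1-N1 (chr20:2789038-2789522, sham 21.04, 11.5 and 22.1) and RT1-CE7 (chr20:3401803-3403269, sham 5.34, 12.9 and 12.8) were also at 0 in TAC. The lowest sham values among these lie near the level limit of 5, and TAC replicate 1 had the most zeros without a transcript (379, against 233 and 129 in TAC replicates 2 and 3 and 123 to 129 in sham).

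**Figure D4:**
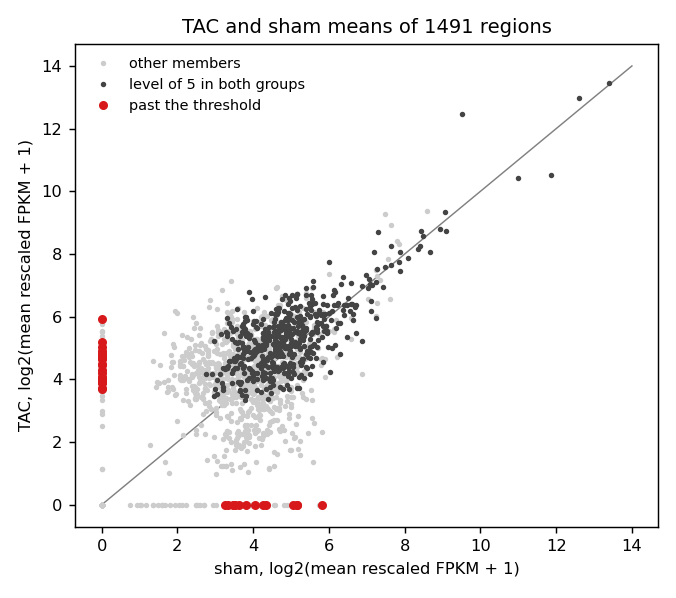
Mean level in sham (x axis) and TAC (y axis) of the 1491 member regions, as log2(mean rescaled FPKM + 1), with the line of equality. The 509 regions at the level in both groups (dark) hold no call, and the 37 regions past the threshold (red) sit on the axes, with 1 group at 0.

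Fetal and TAC were compared over 292 regions at the level in both. In fetal 60 were lower and 5 higher, which is 22.3%, beside 36.7% of all features (19.2% higher and 17.5% lower in fetal), 41.1% of reference loci and 25.4% of merged regions. With length-weighted FPKM the counts were 49 lower and 28 higher, and 42 of the 65 calls held. The part of left-out transcripts in this balance was not tested either. This comparison shares the fetal libraries with that against sham, so the values are given side by side. The regions near Rasgrf2 and Pura and that between Spmip11 and Cacnb3 differed by -7.64, -2.88 and -3.03 from TAC and by -7.27, -2.17 and -2.74 from sham. Regions on the 3′ side of Zdhhc3, a palmitoyltransferase (chr8:127824162-127829145), and of Ino80d, a chromatin remodelling subunit (chr9:61698981-61708599), passed against TAC only in part of the settings. The first was at 11.7, 36.9 and 30.7 in fetal, 88.2, 70.9 and 30.2 in sham and 259, 319 and 60.4 in TAC, a fetal minus TAC difference of -2.80 (SE 0.74, adjusted p = 0.021), which was -0.41 (adjusted p = 0.39) with length-weighted FPKM. The second was at 18.4, 8.16 and 6.24 in fetal and 153, 71.05 and 29.3 in TAC, a difference of -2.68 (SE 0.78, adjusted p = 0.031), and -0.44 (adjusted p = 0.47) when weighted by length. Both were assembled in several pieces in some libraries, and each also missed the threshold when TAC replicate 1 or 2 was left out, the first also without fetal replicate 1 and the second without fetal replicate 2 or 3 (adjusted p between 0.063 and 0.1). With the highest piece in place of the sum the differences were -2.04 (adjusted p = 0.061) and -1.44 (adjusted p = 0.22), and with replicates 2 and 3 alone the adjusted p was 0.17 and 0.11.

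The 5 regions higher in fetal than in TAC included those near Cnn2 and Afap1 and that between Nrsn2 and Defb23, at differences of 0.62, 0.95 and 1.43. A region between Ccr7 and Krt222 (chr10:88104527-88105170), where RefSeq lists the chromatin gene Smarce1, was at 150.2, 96.8 and 155 in fetal and 54.4, 72.3 and 71.2 in TAC, a difference of 0.99 (SE 0.30, adjusted p = 0.034). The call was lost when fetal replicate 1 or 3, any TAC library or sham replicate 2 was left out, with no filter and with replicates 2 and 3 alone (adjusted p between 0.052 and 0.12). Cnn2 was lost against TAC without TAC replicate 2 or 3 or fetal replicate 3 and with replicates 2 and 3 alone (adjusted p between 0.0504 and 0.063). Of 923 regions at the level in 1 of these groups, 94 were higher and 349 lower in fetal, a description only.

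Regions and the loci beside them were set against each other to see whether they move together. For fetal minus sham 270 of the 317 regions at the level in both groups had a tested nearest locus. Of these loci 46 were higher and 61 lower in fetal. In 24 pairs region and locus both passed, 21 in the same direction and 3 in opposite directions, and the signs agreed in 162 of the 270 pairs. With length-weighted FPKM 37 pairs passed in the same direction. For fetal minus TAC, 33 of 243 pairs passed, 28 in the same direction and 5 opposite, and the signs agreed in 132. For TAC minus sham none of 456 passed, and the signs agreed in 229.

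The opposite pairs name regions that do not follow their neighbour. Between Hapln1 and Xrcc4, where RefSeq lists the matrix proteoglycan gene Vcan and a long noncoding RNA, a region (chr2:19821049-19822830) was at 131, 164 and 134 in fetal, 398, 551 and 502 in sham and 421, 442 and 481 in TAC, a fetal minus sham difference of -1.74 (SE 0.15, adjusted p = 0.00014). The locus 8255 bases away was at 65.1 ± 23.8 in fetal and 7.66 ± 5.16 in sham, a difference of 3.03. All adult libraries were above all fetal ones in the region and the reverse held for the group means of the locus. A gapped region (chr3:55182499-55197051) was at 7.33, 19.6 and 26.2 in fetal and 75.3, 53.4 and 92.7 in sham, a difference of -2.13 (SE 0.46, adjusted p = 0.009), beside a locus at 453 ± 104 and 189 ± 70.2. The third pair lay between Tnfsf11 and Rgcc (chr15:59719022-59730163), with -2.02 (SE 0.50, adjusted p = 0.016) for the region and 0.94 for a locus near a level of 1 in sham.

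**Figure D5:**
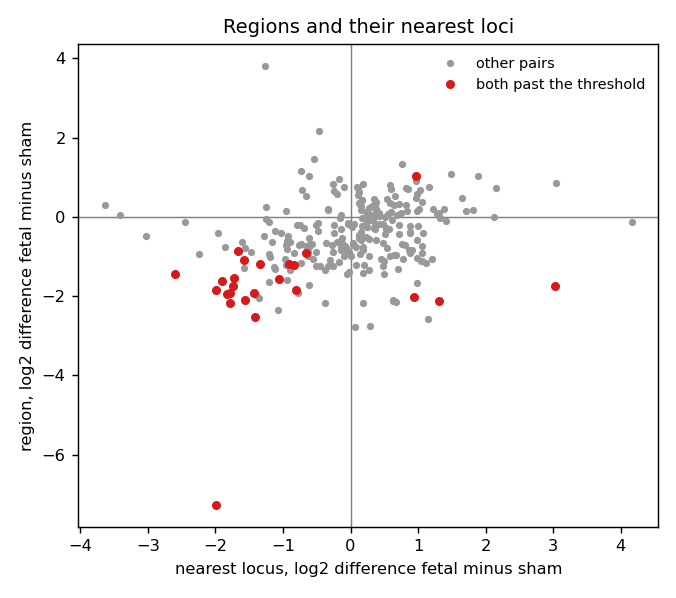
Fetal minus sham log2 difference of the nearest reference locus (x axis) and of the region (y axis) for the 270 pairs with the region at the level in both groups. Red points are the 24 pairs in which both passed the threshold, 21 of them in the lower left or upper right part.

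Some regions lay beside loci of high expression. Next to Actc1, on its 5′ side, a region (chr3:99907975-99917489) was at 19.8, 65.9 and 57.6 in fetal, 0, 0 and 457 in sham and 147, 8.60 and 102 in TAC, while Actc1 stood at 22414 ± 1806 in sham. Near the locus between Mir208a and Ngdn, an interval with the myosin gene Myh7, 2 regions met the level in sham alone, but their values overlapped those of TAC. The first (chr15:33096432-33097479) was at 11.4, 6.14 and 8.62 in sham, 0, 0 and 25.8 in TAC and 0 in fetal. The second (chr15:33097663-33100460) was at 39.5, 5.10 and 8.84 in sham, 0, 18.3 and 94.6 in TAC and 0, 0 and 3.73 in fetal. The locus itself was at 2925 ± 1418 in sham and at 2467, 0 and 2702 in TAC. A value of 0 therefore also occurs in an abundant reference locus. Beside Got1, the cytosolic aspartate aminotransferase, a gapped region (chr1:247303505-247323953) was at 15.6, 38.02 and 46.4 in fetal and 0 in the adult libraries, while Got1 was lower in fetal, at 215 ± 25.02 against 742 ± 87.2 in sham. A left-out transcript lay over 2 of the 6 zeros.

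The longest members span far more than they cover. The region with the longest span (chr20:25980203-26270061) reached 289859 bases, between Dnajc12 and Lrrtm3. The region near Chek2 (chr12:45681811-45928080) was gapped in 8 libraries and at 73.7, 14.99 and 56.9 in fetal, 124, 13.7 and 5.37 in sham and 0, 4.42 and 11.1 in TAC, and fetal and sham overlapped.

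At the limits of the rule, the members just inside the level limit had a lowest library of 5.02 near Rbp7 and 5.04 near Adsl, and regions just outside had 4.99 near Nmnat2 and 4.96 near Rasal1. The member just inside the distance limit lay 9970 bases from Olr349 and the first region outside lay 10044 bases from Fam55c.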

How the data were processed

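The authors deposited FPKM values with confidence bounds for genes and isoforms of each library. Per the submitters' processing notes, reads were handled with TopHat 1.3.1, Cufflinks 1.0.3 and Cuffdiff on build rn4, and coordinates are in that build. Each deposited library carries its own further constant, so values were multiplied by a factor per library, the median of ratios over 13172 loci above 0 in every library. Assembled isoforms differ between libraries. Reference transcripts that shared a gene in at least 5 libraries were summed into 1 locus, and a region's value is the sum of FPKM over its pieces in a library. The deposited transcript length, in bases, was used for the limit of 200 nt.

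Features at 1 or more in at least 3 libraries (14207 loci and 5609 regions) were fitted together in limma 3.58.1 (R 4.3.3) on log2(value + 1), all 9 libraries, trend, Benjamini-Hochberg adjusted p below 0.05 as threshold. Differences on this scale understate the change of weak features. A group at 0 shows no spread, which lowers the spread estimated for that feature. Python 3 (pandas, matplotlib) served for merging and drawing. Named members are the highest, the largest changes per comparison apart by level class, TAC calls or smallest p, the longest and most gapped, those at the limits, those beside markers or high loci, opposite pairs and clusters, with the microRNA neighbours added after their values were seen. The rule gives 124 members, of which only part are printed, and 1 result is not reported here. The members and lists were chosen with earlier results of these data known. The main fit used group only and did not pair libraries. Replicate numbers were taken as pairing them only in an alternative fit, the replicate block. It was tried because same-numbered libraries deviated together in every pair (correlation 0.41, 0.15 and 0.20 for TAC and fetal, 0.42, 0.15 and 0.19 for TAC and sham, 0.45, 0.19 and 0.21 for fetal and sham). Libraries numbered 2 and 3 also correlated across these numbers (0.088 to 0.22), in some pairs more than with their own number. No genome of build rn4 was used, so no sequence of the regions is shown.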

Additional observations from a re-analysis of the deposited data

How the results depend on the processing

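The number of members was 1491, and 1507 with equal library totals, 1908 at a level of 3, 891 at a level of 10, 827 within 1 kb, 969 at a length of 500, 832 with length-weighted FPKM and between 1632 and 1913 without 1 library, which loosens the demand on its group. Of regions at the level in both groups, fetal minus sham gave 48 calls, 78 with length-weighted FPKM, and 38 to 57 without 1 library. Fetal minus TAC gave 65, 43 with replicates 2 and 3 alone (replicate 1 alone allows no test), and 51 to 74 without 1 library. TAC minus sham gave 0, but 1 with the highest isoform, 1 with length-weighted FPKM, 1 with replicates 2 and 3 alone, and 0 to 3 without 1 library (3 without TAC replicate 3, 2 without sham replicate 1). Of regions at the level in 1 of the 2 groups, TAC minus sham gave 37, 89 with replicates 2 and 3 alone, 10 with zeros under a linked transcript as missing (chosen after seeing the data), and 36 to 74 without 1 library (74 without sham replicate 1, 58 without TAC replicate 3). Fetal minus TAC gave 443, 252 with such zeros missing, and 309 to 465 without 1 library, and fetal minus sham gave 247, 181 with such zeros missing (108 lower against 171), and 189 to 275 without 1 library (110 lower without sham replicate 1). With such zeros missing, a region whose low group had no other value could not be tested. Part of each lower count follows from that. Region and nearest locus passed together in the same direction in 21 pairs, 37 with length-weighted FPKM, and 15 to 24 without 1 library. With the replicate block the counts were 55, 72 and 0 for fetal minus sham, fetal minus TAC and TAC minus sham at the level in both groups and 277, 487 and 32 in 1, all within 1.5 times. Of 99 differences recomputed for 80 of the 124 named members none reversed direction under an alternative. Where no value is given above, the cause of a change was not tested. A value rests on a median of 82 implied fragments, and joins to reference transcripts limit what a 0 shows.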
